A study of Mus musculus with 12 samples.

Results

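The 9 genes described here encode the core of the machinery by which a cell senses DNA and RNA in its cytosol, and they were chosen by name among the 31053 genes of the deposited tables: the DNA sensor Mb21d1, the adaptors Tmem173 and Mavs, the RNA sensors Ddx58 and Ifih1, the kinase Tbk1, the transcription factors Irf3 and Irf7, and the Z-nucleic acid sensor Zbp1. Mb21d1 encodes cGAS, which binds double-stranded DNA and makes the messenger cGAMP, and Tmem173 encodes STING, the receptor of cGAMP. Ddx58 (RIG-I) and Ifih1 (MDA5) bind viral or otherwise abnormal RNA and signal through MAVS. Both branches meet at the kinase TBK1, which activates IRF3 and IRF7, the transcription factors that switch on type I interferon, and the interferon then raises a large set of genes in the same and in neighbouring cells. In tumors the cGAS-STING branch is best known for responses of antigen presenting cells to DNA from dying tumor cells.

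The study measured single-cell RNA profiles of spontaneous breast tumors in MMTV-PyMT mice, in which a mammary tumor virus promoter expresses a polyomavirus oncogene, middle T, in mammary epithelial cells. PyMT-PAR2G37I mice carried, in every tissue, a mutant PAR2 allele that resists signalling by coagulation factor Xa, and PyMT-PAR2WT mice carried wild-type PAR2. All mice had the PyMT transgene on a C57BL/6 background and no further treatment. Cells selected with CD11c beads came from late-stage tumors and cells selected with CD4/CD8 beads from mid-size tumors, with 3 samples per genotype and selection (12 in all), and were frozen and thawed before 10x Genomics sequencing. The sample labels gave no mouse age.

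Each selection was deposited as 1 matrix that pools its 6 samples, and the barcodes name no sample. Each matrix was therefore treated as 1 sample, no genotype comparison was made, and no test was possible, since cells are not replicates. The CD11c-selected matrix held 11639 cells with at least 200 detected genes, with a median of 7943 transcript molecules (UMIs) per cell, and the CD4/CD8-selected matrix held 22806 cells with a median of 4361. Within a matrix 76 and 51 barcodes, respectively, occurred more than once, and 92 barcodes occurred in both. The barcode list of each matrix falls into 6 alphabetical stretches. The values of these 6 barcode runs are given as a description of the spread within a matrix, without being linked to a sample or genotype. The runs held between 13314063 and 24245504 UMIs in the CD11c-selected and between 16222260 and 30182353 UMIs in the CD4/CD8-selected matrix.

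Cells were assigned to 8 gates by raw UMIs of marker genes, and gates with at least 50 cells were used. The CD11c-selected cells gave 7255 macrophages, 1200 dendritic cells (DC), 111 neutrophils, 285 tumor cells and 106 fibroblasts. The CD4/CD8-selected cells gave 970 macrophages, 88 plasmacytoid DC (pDC), 17180 CD8 T cells, 611 CD4 T cells, 259 tumor cells and 85 fibroblasts. Levels are UMIs of a gene per 1000000 UMIs of a gate, written as CPM, with the exact Poisson 95% interval in parentheses, which covers counting error only. Levels were compared between cells for the same gene and not between genes. The orders of gates below run across both matrices, in which selection, tumor stage and library differ together. Between gates of different matrices, a difference of cell type cannot be told apart from a difference in these. For example, Ifih1 was at 66.9 CPM in CD11c-selected and at 43.0 CPM in CD4/CD8-selected macrophages.

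Levels of the defining markers follow from the gate rules and give no independent check of cell identity. They are given as a description, with 2 reservations. C1qa, a complement gene of macrophages, was at 3746 CPM in CD11c-selected macrophages against 24.9 CPM in DC and 9.70 CPM in tumor cells, and at 5468 CPM in CD4/CD8-selected macrophages against 9.89 CPM in CD8 T cells. The neutrophil gate also held the epithelial marker Epcam at 887 CPM, carried by 7 of its 111 cells, and its values are given below with and without these cells. The pDC gate, at 1697 CPM of Siglech, also held Cd8a at 511 CPM and Cd3e at 70.0 CPM, and the part of these transcripts in the pDC values was not tested.

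Positions of the genes are those of GENCODE on mouse build GRCm38, the build named mm10 in the submitters' processing notes. Mb21d1, named Cgas in the annotation, lies at chr9:78430526-78443237, Ddx58 at chr4:40203773-40239828, Ifih1 at chr2:62595798-62646255, Tbk1 at chr10:121546455-121586787, Irf7 at chr7:141262706-141266481 and Zbp1 at chr2:173206612-173218923, all on the minus strand. Mavs, at chr2:131234063-131248025, and Irf3, at chr7:44997648-45002848, lie on the plus strand. Irf3 overlaps Bcl2l12 over 1065 bases and Irf7 overlaps Phrf1 over 45 bases, in both cases on the opposite strand. Reads from such a pair can be told apart only where strand was used in counting, which was not given in the sources used here.

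The RNA sensor genes Ddx58 and Ifih1 hold in their promoters the letters that interferon-activated factors are known to read, and these stretches are shown because both genes followed the interferon-induced genes in the cells described below. RefSeq promoter windows on GRCm38.p6, from 250 bases before to 50 bases after each start site, were searched on both strands for GAAANNGAAA, the form of the interferon-stimulated response element. Capitals mark the match or its reverse complement. Counting the start site as base 1, the match starts at base 3 in Ddx58 and at base 33 in Ifih1, in stretches on the minus strand at chr4:40239804-40239833 and chr2:62646206-62646235.
Ddx58: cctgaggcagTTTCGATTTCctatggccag
Ifih1: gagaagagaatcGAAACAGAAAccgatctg
These letters occurred in 3.44% of the 32851 promoter windows of the same length, and in no window of Mb21d1, Mavs, Tbk1, Irf3 or Irf7. The shorter AANNGAAA, which overlaps the longer form, occurred in 23.9% of windows, and of the same 7 genes again in Ddx58 and Ifih1 alone. A match is a description of the letters and not of a bound site, and its relation to the levels was not tested. Windows for Tmem173 and Zbp1 were not searched here. Irf7, without a match, and Zbp1 also followed the interferon-induced genes in the cells described below.

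Mb21d1, the DNA sensor, was lowest in tumor cells. Its level was 15.4 CPM (14.6 to 16.3) in CD11c-selected macrophages, 13.4 CPM (11.7 to 15.2) in DC and 11.7 CPM (11.0 to 12.4) in CD8 T cells. In tumor cells it was 0.78 CPM (0.25 to 1.83, 5 UMIs) in the CD11c selection and 1.48 CPM (0.74 to 2.65, 11 UMIs) in the CD4/CD8 selection. The intervals of every leukocyte gate other than pDC lay above those of both tumor gates. Fibroblasts were between, at 7.27 CPM (3.87 to 12.4) and 5.12 CPM (2.06 to 10.5). CD4/CD8-selected macrophages were at 9.20 CPM (7.85 to 10.7) and CD4 T cells at 8.72 CPM (5.59 to 13.0), while neutrophils, at 18.9 CPM (8.14 to 37.2), and pDC, at 5.22 CPM (1.70 to 12.2), rested on 8 and 5 UMIs. In the order of the 11 gates only CD8 T cells and the next lower gate, CD4/CD8-selected macrophages, had intervals that did not overlap.

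Tmem173, the STING adaptor, was highest in pDC, macrophages and DC. It was at 72.0 CPM (56.1 to 91.2) in pDC, 54.5 CPM (52.9 to 56.1) in CD11c-selected macrophages, 49.8 CPM in DC and 39.3 CPM (36.4 to 42.3) in CD4/CD8-selected macrophages. CD8 T cells were at 25.8 CPM (24.8 to 26.9), CD4 T cells at 29.8 CPM, and tumor cells at 21.9 and 22.2 CPM in the respective selections. Unlike Mb21d1, which was nearly absent there, Tmem173 was thus present in tumor cells. Fibroblasts were at 34.1 and 31.4 CPM and neutrophils at 16.5 CPM (6.64 to 34.0, 7 UMIs). Neighbours in this order overlapped in 9 of 10 pairs, the exception being DC over CD4/CD8-selected macrophages.

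Ddx58, which encodes RIG-I, gave another order, with CD8 T cells at 51.0 CPM (49.6 to 52.5), fibroblasts at 44.2 and 44.6 CPM and tumor cells at 42.7 and 39.3 CPM. Macrophages were lower, at 25.0 CPM (23.9 to 26.1) and 26.4 CPM, and DC lower again, at 14.8 CPM (13.0 to 16.8). The lowest level was in pDC, at 5.22 CPM (1.70 to 12.2), and the highest in neutrophils, at 63.7 CPM (42.0 to 92.6). CD4 T cells were at 32.0 CPM. Only macrophages over DC and DC over pDC were neighbours whose intervals did not overlap. The barcode runs spread widely for this gene, from 5.31 to 31.9 CPM in DC and from 41.8 to 81.9 CPM in CD8 T cells.

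Ifih1, which encodes MDA5, was highest in CD11c-selected macrophages, at 66.9 CPM (65.2 to 68.7), and in tumor cells of the same selection, at 63.0 CPM (57.0 to 69.5). The remaining gates lay at 56.3 and 47.6 CPM in fibroblasts, 49.6 CPM in CD4/CD8-selected tumor cells, 44.8 CPM in neutrophils, 43.0 CPM in CD4/CD8-selected macrophages, 37.4 CPM in CD4 T cells and 36.0 CPM in DC. CD8 T cells, at 31.2 CPM, were near the lower end, and pDC were lowest, at 8.35 CPM (3.61 to 16.5). Thus both RNA sensors were at their lowest in pDC, whose RNA sensing is known to rely on endosomal receptors. Ifih1 ranged from 16.5 to 62.6 CPM over the barcode runs of CD8 T cells, a spread as wide as that between most gates.

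Mavs, the adaptor of both RNA sensors, was a low transcript with its highest levels in macrophages, at 13.7 CPM (12.0 to 15.5) and 11.4 CPM (10.7 to 12.2) in the CD4/CD8 and CD11c selections, and in pDC, at 10.4 CPM (5.01 to 19.2). CD8 T cells were at 5.10 CPM (4.65 to 5.58) and DC at 4.98 CPM (3.97 to 6.17). Tumor cells were at 8.29 and 5.38 CPM, fibroblasts at 4.48 and 7.31 CPM, and CD4 T cells at 2.91 CPM. Neutrophils gave 1 UMI. All 10 neighbouring pairs overlapped, but the intervals of macrophages did not overlap those of CD8 T cells or DC.

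Tbk1, the kinase on which the branches converge, varied least among the sensors, adaptors and kinase. It was at 48.2 CPM in CD11c-selected macrophages, 39.7 CPM in those of the CD4/CD8 selection, 40.7 CPM in pDC, 37.2 CPM in DC and 36.3 CPM in CD4 T cells. CD8 T cells were at 31.6 CPM, tumor cells at 32.2 and 26.5 CPM, and fibroblasts lowest at 22.4 and 23.4 CPM. Neutrophils, at 68.4 CPM (45.8 to 98.2), were 3.06-fold above the lowest gate. No neighbours in this order were separate beyond their intervals.

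The transcription factors differed from each other. Irf3, which is made constitutively and activated by phosphorylation, had the narrowest range of the 9 genes, from 16.8 CPM in CD11c-selected fibroblasts to 42.4 CPM (25.2 to 67.1) in neutrophils, a ratio of 2.53. The pDC, T cell and tumor gates lay above the macrophage and DC gates in summed levels: pDC were at 36.5 CPM, CD8 T cells at 33.0 CPM, tumor cells at 30.7 and 28.8 CPM and CD4 T cells at 29.1 CPM, against 21.0 and 20.1 CPM in macrophages and 19.7 CPM in DC. Fibroblasts of the CD4/CD8 selection were at 18.3 CPM. The only barcode run with 20 pDC or more was at 8.99 CPM (3 UMIs). With cells thinned to 2000 UMIs and then gated anew, pDC were at 0.654 times the CD8 T cell level of Irf3. Of 10 neighbouring pairs only CD4/CD8-selected tumor cells over CD11c-selected macrophages were separate.

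Irf7, the inducible partner and the known driver of interferon production by pDC, was highest there, at 281 CPM (248 to 317). Fibroblasts of the CD4/CD8 selection followed at 174 CPM (153 to 198), yet fibroblasts of the CD11c selection were lowest of all at 71.6 CPM (59.7 to 85.2). The other gates lay between 110.9 CPM in DC and 155 CPM in CD11c-selected tumor cells, with macrophages at 149.8 and 129 CPM, CD4/CD8-selected tumor cells at 133 CPM, neutrophils at 144 CPM, CD4 T cells at 129 CPM and CD8 T cells at 123 CPM. The pDC gate stood above its neighbour beyond the intervals, as did CD8 T cells over DC and DC over CD11c-selected fibroblasts. Barcode runs of DC spread from 26.6 to 142 CPM and those of CD8 T cells from 80.5 to 161 CPM.

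Zbp1, whose protein binds Z-form nucleic acid and can start RIPK3-dependent cell death, was highest in T cells. CD8 T cells were at 158 CPM (155 to 160) and CD4 T cells at 109 CPM (97.4 to 122). Fibroblasts were at 77.5 and 61.0 CPM, macrophages at 72.7 and 56.4 CPM, DC at 65.1 CPM, pDC at 52.2 CPM, neutrophils at 49.5 CPM and tumor cells at 48.7 and 45.7 CPM. The T cell gates were separate from each other and from the rest beyond their intervals, which cover counting error only. The runs of CD8 T cells spread from 113 to 281 CPM. Those of CD4 T cells spread from 58.2 to 234 CPM, across runs of CD8 T cells and of CD4/CD8-selected macrophages (47.5 to 102 CPM).

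**Figure D1:**
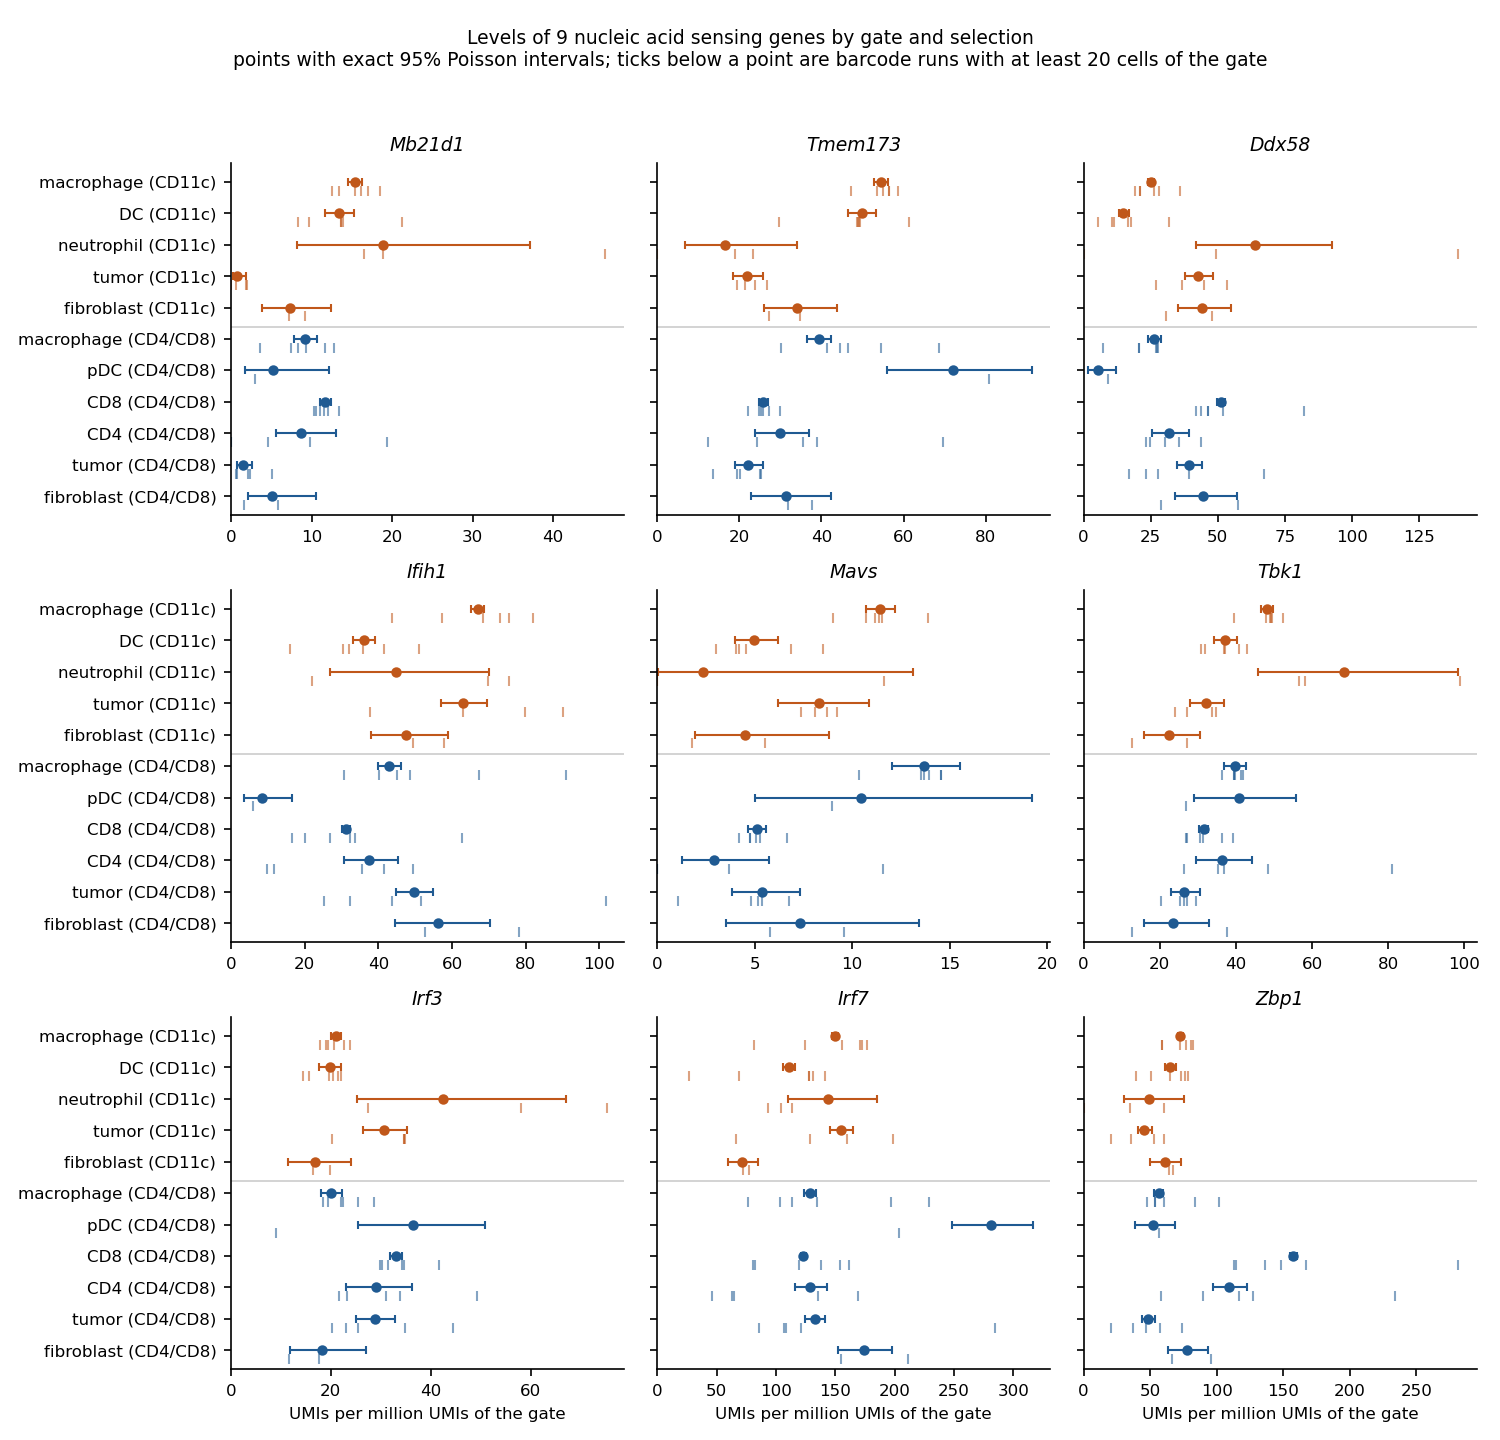
Level of each of the 9 genes (x axis, CPM, linear scale from 0) in the 11 gates (y axis), CD11c-selected in orange and CD4/CD8-selected in blue; points carry exact Poisson 95% intervals and ticks below a point are barcode runs with at least 20 cells of that gate. Mb21d1 lies near 0 in both tumor gates (0.78 and 1.48 CPM), Irf7 is highest in pDC (281 CPM) and Zbp1 in CD8 T cells (158 CPM).

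Without its 7 cells carrying Epcam UMIs the neutrophil gate kept Ddx58 at 65.7 CPM, Ifih1 at 46.9 CPM, Tbk1 at 78.2 CPM, Irf3 at 43.8 CPM and Zbp1 at 53.2 CPM. Mb21d1 was then at 25.0 CPM, Tmem173 at 9.39 CPM (3 UMIs) and Mavs at 0 UMIs, with an interval that reached 11.5 CPM. Irf7 was at 110 CPM (76.3 to 152) without and 249 CPM with Epcam UMIs. By level alone Mb21d1, Ddx58, Tbk1 and Irf3 were therefore highest in the neutrophil gate with or without these cells. The gate was shallow, with a median of 3064 UMIs per cell, and with all its cells each of these intervals overlapped that of the next gate. Without the cells carrying Epcam UMIs the interval of Irf3 was 23.9 to 73.5 CPM, which includes the levels of pDC and CD8 T cells.

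The first pairs of gates set macrophages against other cells of the same matrix. A gene was counted when its levels differed by at least 2-fold, after adding 1 UMI to each sum, among genes with at least 50 UMIs in both sets of cells together. Between CD11c-selected macrophages and DC this held for 1 of the 9 genes, Mavs, 2.27-fold higher in macrophages in 6 of 6 barcode runs, while 24.5% of the 12301 genes tested were past 2-fold either way and 15.4% were higher in macrophages. Ifih1, at 1.86-fold, and Tbk1, at 1.29-fold, were also higher in 6 of 6 runs, and Ddx58, at 1.68-fold, in 5 of 6. The median ratio was 1.29 over the 9 genes and 1.04 over all genes tested. With cells thinned to 2000 UMIs and then gated anew the Mavs ratio was 1.44, which is not past 2-fold. All ratios after thinning were made in this way, so that the sets of cells changed along with the depth.

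Around these genes, 11 of the 41 measured genes of the wider sensing pathway were past 2-fold higher in macrophages and 3 lower. Of all genes tested 15.4% were higher and 9.14% lower. Ifnb1, the interferon-β gene itself, was at 3.76 CPM in macrophages against 0.18 CPM in DC, and Ikbke, which encodes the TBK1-related kinase IKKε, was at 15.8 against 0.96 CPM. Slc19a1, a transporter of cGAMP, was 4.07-fold higher, Mlkl, the executor of necroptosis, 4.03-fold, Rnf135, a ubiquitin ligase for RIG-I, 3.78-fold, and Oas2, a double-stranded RNA sensor, 3.42-fold. By ratio the largest macrophage excess among these genes was in the interferon gene and the inducible kinase. Both were low in DC, where the 0.18 CPM of Ifnb1 rested on 3 UMIs, which limits what can be read from this order.

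Tumor cells differed from CD11c-selected macrophages past 2-fold in 2 of the 9 genes, both lower, where 45.7% of 12781 genes were past 2-fold either way and 18.9% were lower. Mb21d1 in tumor cells was at 0.0608 times and Tmem173 at 0.405 times the macrophage level, each lower in 4 of 4 runs with enough cells. Across the processing alternatives the Mb21d1 ratio ran from 0.0518 to 0.230, the latter after thinning to 2000 UMIs. Ddx58 was instead 1.72-fold and Irf3 1.47-fold higher in tumor cells, while Zbp1 and Tbk1 were at 0.63 and 0.67 times the macrophage level. The share of the 9 genes that was past 2-fold lower was thus near that of all genes, and neither RNA sensor was past 2-fold, with Ifih1 at 63.0 against 66.9 CPM. The median ratio was 0.739 over the 9 genes and 1.21 over all genes. Of 41 pathway genes 18 were past 2-fold lower and 3 higher, against 18.9% and 26.9% of all genes tested. The lower ones included Aim2, the DNA sensor of the inflammasome (0.156 against 29.4 CPM), the necroptosis kinase Ripk3 (0.0466 times), the TBK1 adaptor Tbkbp1 (0.198 times), Irf5 (4.22 against 149.7 CPM) and Irf8 (1.88 against 199 CPM). Ifnb1 had 0 UMIs in the 285 tumor cells, where 3 UMIs would be 0.469 CPM, against 3.76 CPM in macrophages.

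In the CD4/CD8 selection macrophages and CD8 T cells came from 1 matrix. Mavs was 2.69-fold higher in macrophages and Zbp1 at 0.358 times the CD8 level, each in 6 of 6 runs, which made 2 of 9 genes past 2-fold where 49.3% of 12535 genes were, with median ratios of 1.05 and 0.888. Tmem173 was 1.52-fold higher in macrophages, and Ddx58 and Irf3 were at 0.518 and 0.609 times the CD8 level, all in 6 of 6 runs. None of these 3 genes passed 2-fold. Of 40 pathway genes 13 were past 2-fold higher in macrophages and 2 lower, against 23.3% and 26% of all genes tested. Irf5, Tlr3, an endosomal RNA receptor, Dnase2a, the lysosomal DNase, and Irf8 were 26.3-, 19.6-, 12.5- and 7.03-fold higher, while the STING inhibitor Nlrc3 and the antiviral RNA-binding protein gene Zc3hav1 were at 0.129 and 0.169 times the CD8 level.

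The pDC gate stood furthest from CD8 T cells, with 6 of 9 genes past 2-fold against 32.8% of the 11701 genes tested. Tmem173, Irf7 and Mavs were 2.83-, 2.29- and 2.25-fold higher in pDC. Ddx58, Ifih1 and Zbp1 were at 0.123, 0.301 and 0.338 times the CD8 level, and Mb21d1 at 0.535 times. The 3 higher genes encode adaptors and a transcription factor, and the 3 lower ones encode nucleic acid sensors. The median ratio of the 9 genes, 1.14, was close to that of all genes, 1.15. Median depths differed, at 9672 UMIs in pDC and 4554 in CD8 T cells. After thinning to 2000 UMIs and gating anew 6 of 9 genes were again past 2-fold. Ddx58 was then at 0.271 times, Zbp1 at 0.126 times and Irf7 at 2.63-fold. Only 1 barcode run held 20 pDC or more, so the spread over runs was not known. Among 39 pathway genes 5 were past 2-fold higher and 9 lower, against 20.4% and 12.4% of all genes tested. The higher ones included Irf8 (1553 against 26.4 CPM), Irf5 (21.2-fold), Trim25, a ubiquitin ligase for RIG-I (9.61-fold), and Surf4, which returns STING to the endoplasmic reticulum (4.20-fold). The lower ones included Zc3hav1 (0.22 times) and Nlrc3 (0.236 times).

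CD4 and CD8 T cells were past 2-fold apart in 0 of 9 genes, where 13.7% of 11659 genes were. The widest ratios were 0.634 for Ddx58, 0.64 for Mavs and 0.697 for Zbp1, all lower in CD4 T cells, and the median ratio was 0.891 over the 9 genes and 1.03 over all genes. Irf5 (5.49-fold) and Tank, a TBK1 scaffold (2.44-fold), were the pathway genes past 2-fold among 39, both higher in CD4 T cells. Of all genes tested 8.62% were higher there.

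**Figure D2:**
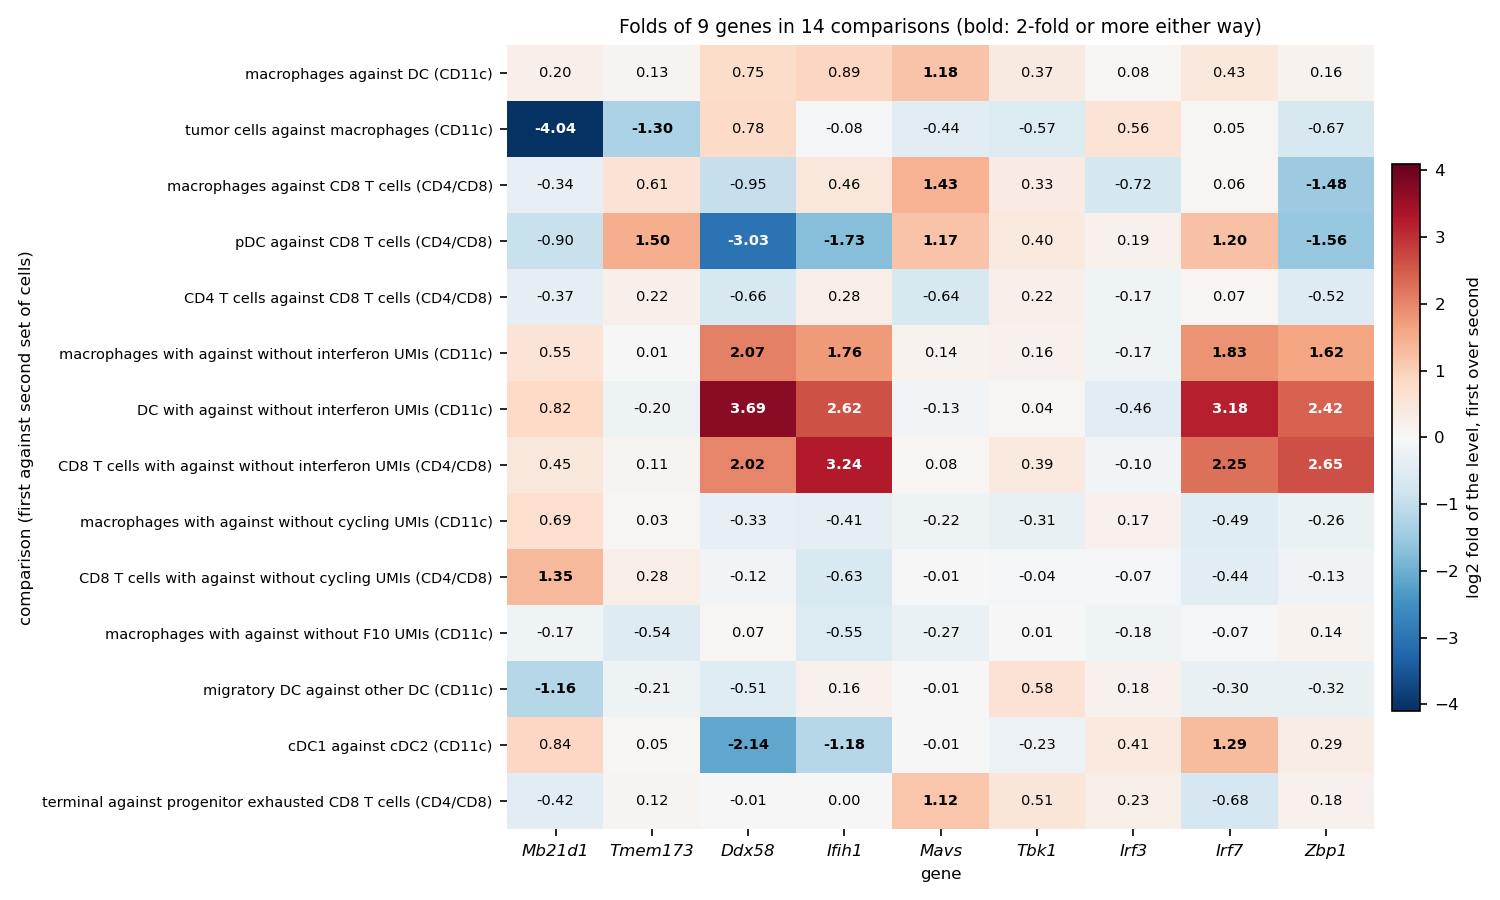
log2 ratio of the level of each of the 9 genes (columns) in 14 comparisons of cells within a matrix (rows, the first-named set over the second; red higher, blue lower), with ratios of 2-fold or more in bold. Ddx58, Ifih1, Irf7 and Zbp1 are past 2-fold in the 3 interferon rows (log2 ratios 1.62 to 3.69), and Mb21d1 is lowest in tumor cells against macrophages (log2 ratio -4.04).

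The clearest division among the 9 genes appeared when cells were split by interferon-induced transcripts. Cells with at least 2 UMIs of Ifit1, Ifit2, Ifit3 and Rsad2, 4 antiviral effector genes induced by interferon, were set against cells of the same gate with none. Among CD11c-selected macrophages 1416 cells fell on the first side and 4883 on the second, with median depths of 11568.5 and 7979 UMIs. Ddx58 was at 53.0 CPM (49.9 to 56.2) with and 12.6 CPM (11.6 to 13.6) without these UMIs, a ratio of 4.20. Irf7 was at 297 against 83.6 CPM (3.55-fold), Ifih1 at 136 against 40.0 CPM (3.39-fold) and Zbp1 at 136 against 44.3 CPM (3.07-fold). These 4 of 9 genes were past 2-fold higher in 6 of 6 barcode runs, where 4.22% of the 11754 genes tested were past 2-fold either way and 3.69% were higher. All 4 are known as interferon-induced genes, and they ranked between 83 and 152 among the 11754 genes by this ratio.

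None of the other 5 genes was past 2-fold. Tmem173 was at 54.6 against 54.1 CPM, a ratio of 1.01, Mavs at 1.10, Tbk1 at 1.12 and Irf3 at 0.888. Mb21d1 was at 19.6 CPM (17.7 to 21.6) against 13.4 CPM (12.4 to 14.4), 1.47-fold, in 5 of 6 runs, with intervals that did not overlap, and it was past 2-fold in 1 of 7 settings, at 2.24-fold after thinning to 2000 UMIs. The median ratio over the 9 genes was 1.47, and over all genes tested 0.992. Of 41 pathway genes 10 were past 2-fold higher and 0 lower, with Ifnb1 at 11.4 against 0.873 CPM, the RNA sensors Oas3 (5.44-fold), Oas2 (3.22-fold) and Dhx58, the relative of RIG-I and MDA5 (2.84-fold), and the interferon signalling factor Stat2 (2.97-fold).

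In DC the same 4 genes were past 2-fold, with wider ratios. The 105 cells with interferon-induced UMIs had Ddx58 at 80.5 CPM (67.6 to 95.2) against 6.23 CPM (4.98 to 7.70) in the 1008 cells without, 12.9-fold. Irf7 was at 521 against 57.5 CPM (9.06-fold), Ifih1 at 139 against 22.6 CPM (6.15-fold) and Zbp1 at 232 against 43.5 CPM (5.34-fold). The background was 8.34% of 9256 genes either way and 6.58% higher, and the median ratio was 1.77 over the 9 genes and 1.02 over all genes. Median depths were close in this gate, at 13351 and 12210.5 UMIs, but only 2 runs held 20 cells or more on both sides. Mb21d1 was 1.77-fold higher, at 21.2 CPM (14.8 to 29.3) against 12.2 CPM (10.5 to 14.2), Irf3 was at 0.726 times, and Tmem173, Mavs and Tbk1 lay between 0.87 and 1.03. Of 34 pathway genes 11 were past 2-fold higher, Oas3 (11.2-fold), Oas2 (6.49-fold), Dhx58 (5.46-fold), the RNA-activated kinase gene Eif2ak2 (4.09-fold), Oas1a (3.76-fold) and the RNA-editing enzyme gene Adar (3.01-fold) with the widest ratios.

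CD8 T cells, split into 2633 with and 12350 without these UMIs at nearly equal median depths of 4795 and 4458, gave the same 4 genes in another order. Ifih1 led, at 115 CPM (109.7 to 120.4) against 12.2 CPM (11.3 to 13.1), 9.44-fold and rank 26 among 11393 genes. Zbp1 followed at 492 against 78.4 CPM (6.28-fold), Irf7 at 338 against 70.9 CPM (4.77-fold) and Ddx58 at 132.5 against 32.8 CPM (4.05-fold), all in 6 of 6 runs, against backgrounds of 4.87% either way and 4.12% higher and with median ratios of 1.37 and 0.988. So Ifih1, among the lowest in CD8 T cells as a whole, was at 115 CPM in those with interferon-induced UMIs, where macrophages with them were at 136 CPM. Tbk1 was at 38.9 against 29.7 CPM (1.31-fold) and Mb21d1 at 14.9 against 10.9 CPM (1.37-fold), both in 6 of 6 runs, and Tmem173, Mavs and Irf3 were at 1.08, 1.06 and 0.93. Of 39 pathway genes 12 were past 2-fold higher, led by Oas2 (14.6-fold), Dhx58 (7.95-fold), Oas3 (6.20-fold), Oas1a (5.18-fold), Eif2ak2 (4.45-fold) and Samhd1, which degrades nucleotides needed for reverse transcription (4.12-fold). Grouped by role, RNA sensors and their regulators outside the 9 genes were past 2-fold higher in 6 of 11 cases in macrophages, 6 of 10 in DC and 7 of 10 in CD8 T cells. Transcription factors were in 2, 3 and 3 of 6 cases, respectively. Cytosolic DNA sensors and their regulators were in 0, 1 and 1 of 8 cases, and genes of the kinase complex, its adaptors and its regulators in 0 of 8, 0 of 5 and 0 of 8. Genes of cGAMP handling were in 0 of 3, 1 of 2 and 0 of 3, and cell death partners in 1 of 4, 0 of 3 and 1 of 4. Over all genes tested, 3.69% were past 2-fold higher in macrophages, 6.58% in DC and 4.12% in CD8 T cells. The cells were split by interferon-induced genes and the lists were chosen with earlier results known. These counts therefore describe the lists and give no test of one role against another.

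**Figure D3:**
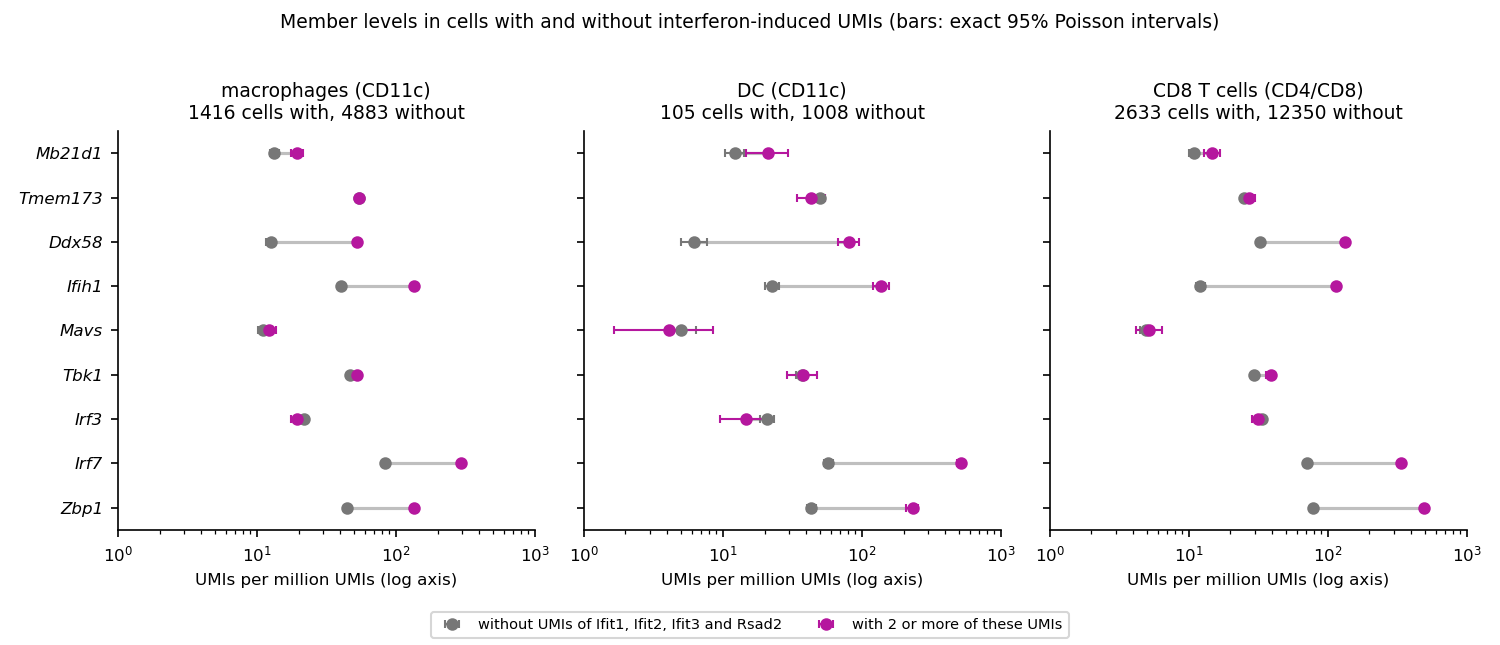
Level of the 9 genes (x axis, CPM, log scale) in cells without UMIs of 4 interferon-induced genes (grey) and with at least 2 of them (purple), in macrophages, DC and CD8 T cells; bars are exact Poisson 95% intervals. Ddx58, Ifih1, Irf7 and Zbp1 move apart in all 3 gates, by 3.07- to 12.9-fold, while Tmem173, Mavs, Tbk1 and Irf3 stay within 1.38-fold either way.

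The same split in the other gates with enough cells was added after the values above were seen. In CD4/CD8-selected macrophages (263 against 559 cells) Ddx58, Zbp1, Irf7 and Ifih1 were 3.75-, 3.17-, 2.70- and 2.55-fold higher, against 2.48% of 9513 genes past 2-fold higher. In CD4 T cells (67 against 471 cells) Ifih1, Zbp1, Irf7 and Ddx58 were 6.76-, 6.60-, 6.30- and 5.78-fold higher, against 3.05%. In CD11c-selected tumor cells (77 against 184 cells) Irf7, Zbp1 and Ifih1 were 3.99-, 2.66- and 2.60-fold higher and Ddx58 1.43-fold, against 1.57%. In CD4/CD8-selected tumor cells (80 against 142 cells) Irf7 and Ifih1 were 3.03- and 2.22-fold higher, while Ddx58, at 1.96-fold, and Zbp1, at 1.78-fold, were not past 2-fold, against 1.34%. Depth moved with this split in tumor cells, where median UMIs were 29222 against 7538 and 30915 against 11629, and its part in these ratios was not tested.

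Because a deeper cell has more chance to show an interferon-induced UMI, cells were also thinned to 2000 UMIs each and put into classes by the number of these UMIs left. CD11c-selected macrophages with 0, 1, 2 and 3 or more such UMIs numbered 5330, 573, 202 and 305. Across these classes Ifih1 was at 50.7, 134, 186 and 389 CPM, Irf7 at 116, 259, 361 and 502 CPM, Ddx58 at 19.6, 52.4, 64.4 and 125 CPM, and Zbp1 at 60.2, 130.0, 153 and 219.7 CPM. In these macrophages all 4 were higher in each class than in the one before. The intervals for 1 and 2 UMIs overlapped for Ddx58, Ifih1 and Zbp1, as did those for 2 and for 3 or more for Zbp1. The order broke in smaller classes of other gates, in DC (1100, 35, 12 and 23 cells) for Zbp1, at 50.9, 143, 542 and 304 CPM, and in CD4/CD8-selected macrophages (741, 101, 24 and 30 cells) for Ddx58, at 18.2, 59.4, 20.8 and 217 CPM, Irf7, at 111, 243, 458 and 333 CPM, and Zbp1, at 35.1, 119, 208 and 183 CPM. In the CD11c-selected macrophages Tmem173 was at 54.6, 59.3, 61.9 and 49.2 CPM, Tbk1 at 50.1, 55.8, 56.9 and 50.8 CPM and Irf3 at 21.9, 20.1, 22.3 and 21.3 CPM, with no such order. Mb21d1 also rose from class to class in these macrophages, at 15.7 CPM (13.4 to 18.2), 21.8, 29.7 and 34.4 CPM (21.3 to 52.6). Its intervals for 0 and for 3 or more did not overlap, while those of neighbouring classes did.

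In CD8 T cells at the same depth, with 12841, 1489, 499 and 989 cells in the classes, Zbp1 was at 98.6, 279, 499 and 809 CPM and Irf7 at 90.7, 222, 347 and 536 CPM. Ddx58 was at 37.1, 75.9, 121 and 227 CPM. Ifih1 was at 16.4, 48.0, 70.1 and 262 CPM, with its widest step between the last classes. Tbk1 was at 31.7 CPM (29.5 to 33.9) with 0 and at 48.5 CPM (39.3 to 59.3) with 3 or more interferon-induced UMIs. Tmem173, at 26.2 and 21.2 CPM, and Mb21d1, at 10.0 and 14.7 CPM in the first and last class, had intervals that overlapped.

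**Figure D4:**
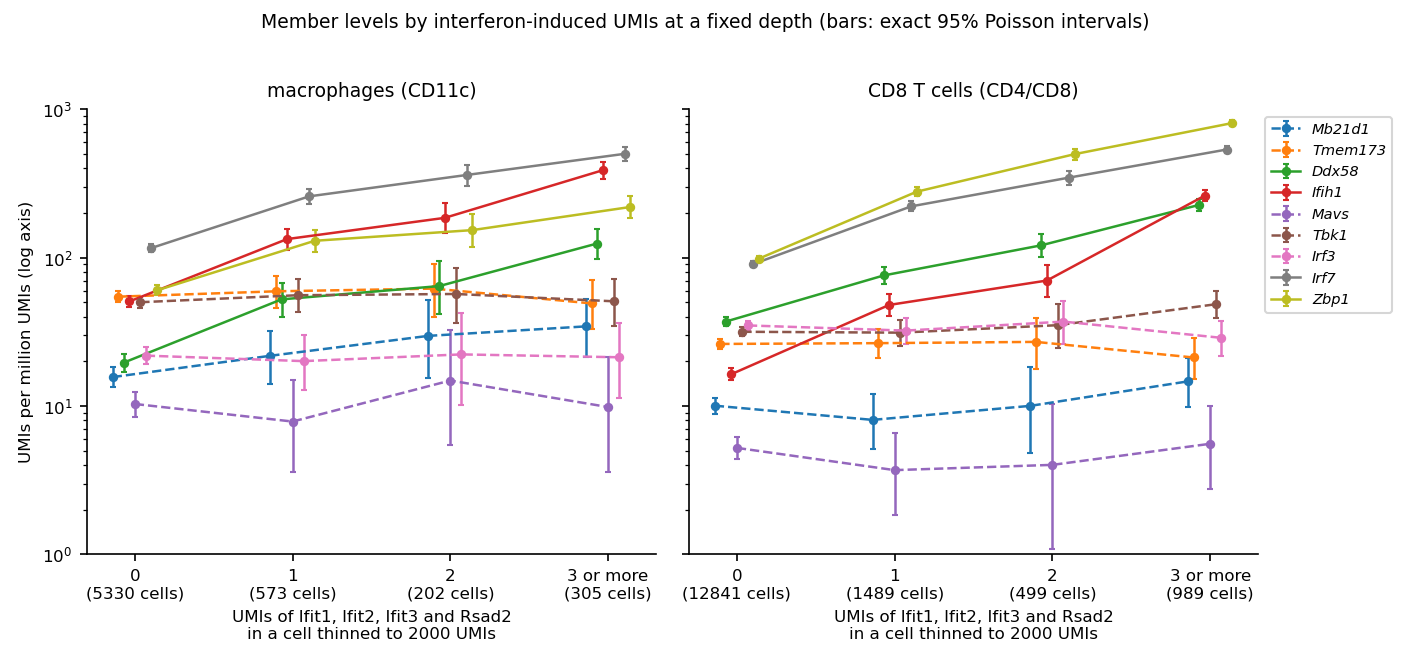
Level of each of the 9 genes (y axis, CPM, log scale) against the number of UMIs of 4 interferon-induced genes in a cell thinned to 2000 UMIs (x axis, with the number of cells), in macrophages and CD8 T cells; bars are exact Poisson 95% intervals, solid lines join Ddx58, Ifih1, Irf7 and Zbp1 and dashed lines the other 5 genes. The solid lines climb from class to class, Ifih1 in CD8 T cells from 16.4 to 262 CPM, and of the dashed lines Mb21d1 in macrophages goes from 15.7 to 34.4 CPM and Tbk1 in CD8 T cells from 31.7 to 48.5 CPM.

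The share of cells with interferon-induced UMIs also differed between gates. After thinning to 2000 UMIs, at least 1 such UMI was present in 16.8% of CD11c-selected and 17.3% of CD4/CD8-selected macrophages, 18.8% of CD8 T cells, 14.6% of CD4 T cells, 14.8% and 19.3% of tumor cells, 19.8% and 31.8% of fibroblasts, 11.8% of neutrophils, 5.98% of DC and 3.45% of pDC. Without thinning, at least 2 were present in 19.5% and 27.1% of macrophages, 15.3% of CD8 T cells, 11.0% of CD4 T cells, 27.0% and 30.9% of tumor cells, 34.9% and 41.2% of fibroblasts, 9.91% of neutrophils, 8.75% of DC and 6.82% of pDC. No gate that should lack these genes was at hand to set a background.

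Levels in cells without any interferon-induced UMI, an alternative added after these values were seen, show which differences between gates remained apart from such cells. Zbp1 in these cells was at 78.4 CPM (76.3 to 80.6) in CD8 T cells and 67.6 CPM (57.0 to 79.5) in CD4 T cells, against 44.3 CPM in CD11c-selected and 30.8 CPM (27.2 to 34.7) in CD4/CD8-selected macrophages. Ddx58 was at 32.8 CPM in CD8 T cells, 35.4 and 24.9 CPM in tumor cells and 20.2 CPM in CD4 T cells, against 12.6 and 13.0 CPM in macrophages, 6.23 CPM in DC and 2.67 CPM (0.3 to 9.6, 2 UMIs) in pDC. The excess of both genes in CD8 T cells over macrophages was therefore present in cells on either side of the split.

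Ifih1 without interferon-induced UMIs was at 12.2 CPM (11.3 to 13.1) in CD8 T cells, below the 40.0 and 26.7 CPM of macrophages, the 34.2 and 30.8 CPM of tumor cells and the 23.9 CPM (17.8 to 31.5) of CD4 T cells, so that CD8 and CD4 T cells had separate intervals. Irf7 stayed highest in pDC, at 295 CPM (257 to 336), above the 30.3 to 83.6 CPM of all other sets of cells examined. In neutrophils Ddx58 was at 17.8 CPM (5.8 to 41.5) and Zbp1 at 14.2 CPM (3.9 to 36.4), whereas Tbk1 was at 81.8 CPM (51.8 to 122.7), still the highest of the gates. Cells without these UMIs also include cells too shallow to show one.

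Mb21d1 was the member that differed most with the cell cycle. CD8 T cells with at least 2 UMIs of Mki67 and Top2a, which mark dividing cells, held Mb21d1 at 23.0 CPM (20.9 to 25.3) against 9.05 CPM (8.31 to 9.85) in those with none, 2.54-fold, in 6 of 6 runs with ratios from 1.41 to 3.55. It was the only 1 of 9 genes past 2-fold, where 7.76% of 11346 genes were and 6.58% were higher, and the median ratio was 0.955 over the 9 genes and 1.03 over all genes. Cycling macrophages held Mb21d1 at 22.0 CPM (19.9 to 24.3) against 13.6 CPM (12.7 to 14.7), 1.62-fold, in 6 of 6 runs, and there 0 of 9 genes were past 2-fold against 6.87% of 11778 genes, with median ratios of 0.832 and 1.03. Cycling cells were deeper, with median UMIs of 8318 against 4290 in CD8 T cells and 16295.5 against 7905 in macrophages. After thinning to 2000 UMIs and gating and splitting anew the Mb21d1 ratio was 2.65 and 1.93, respectively.

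None of the 4 interferon-induced members was past 2-fold between cycling and other cells. Irf7 was at 0.738 times in cycling CD8 T cells and 0.713 times in cycling macrophages, Ifih1 at 0.647 and 0.753 times, Ddx58 at 0.918 and 0.794 times and Zbp1 at 0.913 and 0.832 times. Under other settings the ratio of Ddx58 reached 1.06 and 1.33 and that of Zbp1 1.07 and 1.02, so that neither kept 1 direction, and Ifih1 in cycling CD8 T cells was at 0.479 times with doubled marker minimums. Tmem173, the partner of cGAS, was 1.21-fold in CD8 T cells and 1.02-fold in macrophages. Of the 39 pathway genes measured in CD8 T cells 4 were past 2-fold higher in cycling cells and 0 lower: Rnaseh2b (4.18-fold) and Rnaseh2a (2.10-fold), subunits of an enzyme that removes ribonucleotides from DNA, Banf1 (2.66-fold), which shields nuclear DNA from cGAS, and Mlkl (2.20-fold). In macrophages Rnaseh2b (2.52-fold) passed.

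Macrophages with F10 UMIs were examined because F10 encodes coagulation factor X, the protease precursor to which the study's PAR2 allele is insensitive once activated. The 900 cells with F10 UMIs had Tmem173 at 40.4 CPM (37.6 to 43.4) against 58.7 CPM (56.9 to 60.7) in the 6355 without, 0.69 times, and Ifih1 at 49.4 CPM (46.3 to 52.6) against 72.2 CPM (70.2 to 74.4), 0.684 times, both lower in 6 of 6 runs. Neither passed 2-fold, and 0 of 9 genes did, against 9.42% of 11941 genes, with median ratios of 0.888 and 0.972. The other 7 genes lay between 0.829 and 1.10 times, and Mb21d1 was at 0.888 times its level of 15.8 CPM. Ifnb1 was at 0.776 against 4.67 CPM, lower in 5 of 6 runs. Cells with F10 UMIs were deeper, at a median of 17752.5 against 7943 UMIs. After thinning to 2000 UMIs the cells were gated and split by F10 anew. The ratio was then 0.451 for Ifih1, 0.846 for Tmem173 and 0.393 for Mb21d1, so that 2 of 9 genes were past 2-fold.

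Among DC, cells expressing Xcr1 or Clec9a (cDC1, which present antigen to CD8 T cells) were set against cells expressing Cd209a (cDC2). Ddx58 was at 4.64 CPM (3.17 to 6.55) in 422 cDC1 and 20.9 CPM (17.2 to 25.2) in 385 cDC2, 0.227 times. Ifih1 was at 45.5 CPM in cDC2 and at 0.441 times that level in cDC1, while Irf7 was higher in cDC1, at 137 against 55.8 CPM (2.44-fold, 5 of 5 runs). These were 3 of 9 genes past 2-fold against 19.9% of 8692 genes, with median ratios of 1.03 and 1.06. The 4 interferon-induced members therefore did not move together between DC subsets. Mb21d1 was at 17.8 CPM (14.8 to 21.3) in cDC1 and 9.87 CPM (7.37 to 12.9) in cDC2, and Tmem173 at 51.6 and 49.9 CPM.

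Cells with at least 2 interferon-induced UMIs made up 4.98% (3.11 to 7.51, exact binomial interval) of cDC1 and 8.57% (5.97 to 11.8) of cDC2. In cells without any, Ddx58 was at 1.31 CPM (0.6 to 2.6) in cDC1 against 11.9 CPM (8.9 to 15.6) in cDC2, Ifih1 at 11.9 CPM (9.4 to 15.0) against 29.9 CPM (24.9 to 35.5) and Irf7 at 70.5 CPM (64.0 to 77.4) against 30.3 CPM (25.3 to 36.0), so all 3 differences were present there. After thinning to 2000 UMIs before gating, the cDC1 to cDC2 ratio of Ddx58 was 0.690 and that of Ifih1 was 1.03, a change of direction. Of 34 pathway genes 5 were past 2-fold higher in cDC1 and 4 lower, against 9.07% and 10.8% of all genes tested. Among them Tlr3 was at 36.2 against 0.379 CPM, Irf8 at 18.8-fold, and Oas2, Tank and Oas1a at 0.0955, 0.185 and 0.365 times.

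Migratory DC, with Ccr7 and Fscn1, had Mb21d1 at 5.72 CPM (2.61 to 10.9, 9 UMIs) in 113 cells against 14.2 CPM (12.3 to 16.2) in the other 1087 DC, 0.446 times and lower in 3 of 3 runs. This was 1 of 9 genes past 2-fold against 24.4% of 9417 genes, with median ratios of 0.866 and 0.891, and at a fixed depth the ratio was 0.75. Tbk1 was at 52.7 CPM (42.0 to 65.4) against 35.6 CPM (32.7 to 38.8), 1.49-fold, in 3 of 3 runs. Around it the TBK1 partners Traf3 and Tank were 3.59- and 2.64-fold higher and Tbkbp1 was at 0.21 times. Irf1 was at 5.81-fold, Tlr3 at 0.107 times and Dhx58 at 0.479 times. Among 34 pathway genes 4 were past 2-fold higher and 3 lower, against 9.34% and 15% of all genes tested.

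Terminally exhausted CD8 T cells (486, Pdcd1 and Havcr2 without Tcf7) and progenitor exhausted cells (1784, Pdcd1 and Tcf7 without Havcr2) differed little in these genes. Irf7 was at 83.0 CPM (73.2 to 93.7) in terminal against 133.5 CPM (127 to 140.0) in progenitor cells, 0.623 times and lower in 6 of 6 runs. Tbk1 was 1.42-fold higher in terminal cells, in 5 of 6 runs, and Ddx58 and Ifih1 were at 0.994 and 0.999 times. Mavs was at 8.93 CPM (28 UMIs) against 4.16 CPM (53 UMIs), 2.18-fold, the only 1 of 9 past 2-fold against 4.38% of 9170 genes, with median ratios of 1.09 and 1.10, but after thinning the ratio was 0.636. None of the 36 pathway genes measured was past 2-fold in this comparison.

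The profile of each gene over the 11 gates was compared with that of 11137 genes by Pearson's r of log2(CPM + 1), as a description of 11 points that share libraries and depths. Mb21d1 was most like Rab8b, Gsdmd and Wipf1 (each 0.95), Tmem173 like Irf8 (0.96), Dnajb11 (0.95) and Herpud1 (0.93), and Mavs like Slc27a1 (0.91), Paox and Nme4 (each 0.89). Ddx58 was most like Rtp4 (0.96), Strn (0.95) and Chmp7 (0.94), and Ifih1 like Raph1, Bmf (each 0.96) and Zfp703 (0.95). Tbk1 was most like Dnm2 (0.95), Pik3ap1 (0.94) and Ik (0.93), Irf3 like Cwf19l2 (0.98), Bloc1s4 and Zfyve27 (each 0.96), Irf7 like Msmo1 (0.89), Fem1a (0.87) and Kdm1b (0.85), and Zbp1 like Kif20b (0.92), Rmi2 and Rwdd1 (each 0.91). Among the 36 pairs of the 9 genes the highest r was 0.76, between the RNA sensors Ddx58 and Ifih1, and the lowest was -0.87, between Tmem173 and Ddx58.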

How the data were processed

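The authors deposited, per the files, 2 matrices of raw UMI counts per gene and cell, made by Cell Ranger 3.0.2 with mm10 according to the submitters' processing notes; each pools 6 samples. The 9 genes and all lists were chosen with earlier results of these data known. Cells with at least 200 detected genes were gated on raw marker UMIs, cells in several gates (19 and 116) were left out, and doublets were not called. For example, macrophages needed 5 UMIs of C1qa, C1qb and C1qc and 1 of Csf1r, Adgre1, Fcgr1 or Mertk. UMI counts were summed per gate (Python 3.11.15, numpy 2.4.6, pandas 2.3.3, scipy 1.17.1, matplotlib 3.10.9). Ratios were computed after adding 1 UMI to each sum, and scripts were tested on simulated data. Barcode runs needed 20 cells on each side. All 9 genes were named in every gate, with up to 6 of the 45 pathway genes per comparison (widest ratio) and the 3 genes most like each member among those with 500 UMIs or more. Alternatives were 500 detected genes, doubled marker minimums, means over cells, thinning to 2000 UMIs, leaving out the 5% deepest cells or cells over 10% mitochondrial UMIs, and a 1.5-fold limit. For ratios after thinning, cells were gated and split on the thinned UMIs. The classes and shares by interferon-induced UMIs at 2000 UMIs kept the gates of raw UMIs. The planned genotype tests (edgeR, DESeq2) were not run because barcodes name no sample. Some genes of the pathway list that the naming rule selects are not reported here.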

Additional observations from a re-analysis of the deposited data

How the results depend on the processing

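The number of the 9 genes past 2-fold was the same with 500 detected genes and without cells over 10% mitochondrial UMIs in all 14 comparisons. It moved by more than 1.5 times, or to or from 0, in these cases. With doubled marker minimums it was 1 in place of 0 for cycling macrophages and 2 in place of 1 for cycling CD8 T cells. As a mean over cells it was 2 in place of 1 for macrophages against DC, 4 in place of 2 for tumor cells against macrophages and 2 in place of 1 for migratory DC. Thinned to 2000 UMIs it was 0 in place of 1 for macrophages against DC, migratory DC and terminal against progenitor CD8 T cells, 2 in place of 0 for cells with F10 UMIs and 1 in place of 3 for cDC1 against cDC2. With a 1.5-fold limit it was 3 for macrophages against DC, 4 for tumor cells against macrophages, 5 for macrophages against CD8 T cells, 2 for CD4 against CD8 T cells, 1 for cycling macrophages and 2 each for cycling CD8 T cells and for terminal against progenitor cells. Smaller changes were these. In macrophages against CD8 T cells 3 genes in place of 2 passed as a mean over cells and without the 5% deepest cells (Ddx58, 0.445 and 0.482 times) and after thinning (Tmem173, 2.08-fold), and in pDC against CD8 T cells 7 in place of 6 passed as a mean over cells (Mb21d1, 0.374 times) and with a 1.5-fold limit. In the interferon split of DC it was 5 in place of 4 as a mean over cells, without the 5% deepest cells and with a 1.5-fold limit, and 3 after thinning, where fewer genes held 50 UMIs, and in that of macrophages it was 5 after thinning. In cDC1 against cDC2 it was 4 in place of 3 with a 1.5-fold limit. The ratio changed direction for Ifih1 in cDC1 against cDC2 (1.03) and for Mavs in terminal against progenitor cells (0.636), both after thinning; the cause was not tested. In the interferon splits of macrophages, DC and CD8 T cells the ratios of Ddx58, Ifih1, Irf7 and Zbp1 were past 2-fold under every one of 7 settings. That of Mb21d1 was also past 2-fold in DC in 3 of them (up to 6.24) and in macrophages in 1 (2.24), and that of Mavs in DC in 1 (2.50). Counts under about 30 UMIs, as for Mavs and Mb21d1 in small gates, limit what can be read from a ratio. No paired analysis was possible because the barcodes carry no sample names, so that the replicate block, DESeq2, the low-count filter and leaving out each replicate were not run for a genotype comparison.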

Other observations

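Cells that fell in no gate were used in no comparison. They numbered 2608 in the CD11c-selected matrix, with a median of 2205.5 UMIs, and 3481 in the CD4/CD8-selected matrix, with a median of 1400 UMIs. In the CD11c selection these cells held Mb21d1 at 16.3 CPM, Tmem173 at 44.6 CPM, Ddx58 at 29.6 CPM, Ifih1 at 48.8 CPM, Mavs at 9.30 CPM, Tbk1 at 46.3 CPM, Irf3 at 18.7 CPM, Irf7 at 114 CPM and Zbp1 at 70.6 CPM. In the CD4/CD8 selection they held Mb21d1 at 12.3 CPM, Tmem173 at 30.6 CPM, Ddx58 at 44.2 CPM, Ifih1 at 32.7 CPM, Mavs at 5.47 CPM, Tbk1 at 36.7 CPM, Irf3 at 35.6 CPM, Irf7 at 131 CPM and Zbp1 at 102 CPM. The first set lay near the macrophage levels of its matrix and the second near the CD8 T cell levels for most of the genes, with exceptions. In the first set Ifih1 was at 48.8 against 66.9 CPM, Irf7 at 114 against 149.8 CPM and Tmem173 at 44.6 against 54.5 CPM. In the second Zbp1 was at 102 against 158 CPM.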
